A study of Mus musculus with 16 samples.

Results

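The cytochrome P450 genes, whose mouse symbols begin with Cyp, were followed across livers with and without the Lcn2 gene and with and without repeated carbon tetrachloride (CCl4). Members were all gene probes whose symbol was made of Cyp, a family number, subfamily letters and a gene number, as in Cyp2b10. The array carried 90 such symbols on 113 probes, of 36518 symbols in all, and they fell into 16 families. Each gene was read from its probe with the highest mean signal. Of the 90 genes, 75 were tested among 24357 genes, because their probe was well above background on 3 or more of the 16 arrays. A further 14 did not reach that limit and 1, Cyp4v3, had no unmarked spot on some array. Of the 75 tested genes, 36 belonged to families and subfamilies 1a, 2a, 2b, 2c, 2e, 3a, 4a, 7 and 8, and 39 to others.

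RNA of whole liver from male BALB/c mice was hybridised to 1-colour Agilent arrays. Mice were wild type (WT) or lacked Lcn2 (Lcn2-/-), and reached an age of 6 to 8 weeks on chow before treatment. CCl4 was diluted in corn oil and injected into the peritoneum at 0.5 ml/kg, 2 times a week over 4 weeks, with livers taken 48 h after the final injection. Controls of both genotypes received the oil vehicle. The design gave 4 arrays of WT control, 3 of Lcn2-/- control, 5 of WT CCl4 and 4 of Lcn2-/- CCl4 mice. The Lcn2 deletion is present in every cell of the knockout mice, which were bred from a mixed 129/Ola and C57BL/6 background onto BALB/c. The p-values measure the spread between these arrays, which were taken as 1 mouse each.

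Most P450 enzymes sit in the endoplasmic reticulum, where they draw electrons from P450 oxidoreductase (Por) and insert an oxygen atom into drugs, fatty acids, steroids, retinoids and bile acid precursors. In the liver they are made mainly by hepatocytes, many of them in the layers around the central vein, and their transcription is set by nuclear receptors such as CAR (Nr1i3), PXR (Nr1i2) and PPARα (Ppara), by the aryl hydrocarbon receptor (Ahr) and, in rodents, by the sex-dependent pattern of growth hormone. Cyp2e1 is known as the main enzyme that turns CCl4 into its toxic radical.

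Spots well above background made up 51.6% to 60.9% of each array, 0 gene spots were saturated, and r between arrays of a group lay between 0.9736 and 0.9916. Lcn2 separated the genotypes, with log2 signals of 10.47 to 12.25 on the Lcn2-/- arrays and 13.79 to 17.57 on the WT arrays. All 7 control arrays and 1 WT CCl4 array shared a slide, and the other 8 CCl4 arrays lay on a second slide. WT control 3 had the highest macrophage and stellate cell marker levels among the control arrays. The mean of 11 hepatocyte marker genes lay between 17.51 and 18.07 on all 16 arrays and 0 of them were called in either genotype. The stellate cell and myofibroblast list had 8 of 10 genes higher in WT and 7 of 10 in Lcn2-/- mice, its mean level lying between 8.99 and 10.64 in controls and between 10.77 and 11.85 under CCl4. Of 10 macrophage genes, 5 were higher in each genotype and 1, Clec4f, was lower in WT, and the list mean lay between 9.53 and 12.67 in controls and between 11.99 and 13.25 under CCl4. For neutrophils 5 of 7 genes were higher in WT and 0 in Lcn2-/- mice, with list means of 7.75 to 12.12 in controls and 10.22 to 11.75 under CCl4. The 12.12 is that of Lcn2-/- control 3, which lay above every CCl4 array, and the difference between genotypes was called for none of the 7 genes. Among cholangiocyte and progenitor genes 2 of 6 were higher in WT and 1 in Lcn2-/- mice, the list mean lying between 7.90 and 8.78 in controls and between 8.89 and 9.79 under CCl4. Beside these counts, 8.01% of all genes were higher and 8.8% lower in WT, and 6.57% higher and 5.61% lower in Lcn2-/- mice. The part of these other cell types in the P450 values was not tested.

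To ask how the P450 family responded to CCl4, the CCl4 arrays were compared with the controls of the same genotype. In WT livers 11 members were higher (14.7% of 75, against 8.01% of all genes tested) and 14 were lower (18.7%, against 8.8%). In Lcn2-/- livers 9 members were higher (12%, against 6.57%) and 10 were lower (13.3%, against 5.61%). These shares of all genes stand beside every count of CCl4 calls in the main fit below. The median response of the 75 members was -0.13 on the log2 scale in WT and -0.04 in Lcn2-/- mice, beside -0.03 and -0.02 over all genes. Calls are adjusted p under 0.05 in limma after Benjamini-Hochberg, and all values below are log2 quantile-normalized signals or their differences. Positions in parentheses are those of the probe on mm9. In whole liver, fewer cells of a type and less RNA per cell cannot be told apart.

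The members with the largest rises were Cyp4a14, Cyp39a1, Cyp3a44 and the 3 tested genes of subfamily 2b in WT mice, and those with the largest falls were Cyp7b1 and Cyp2g1. Both genotypes shared 14 calls, all in the same direction, which is 56% of the WT calls and 73.7% of the Lcn2-/- calls. The 11 genes called in WT alone had the same sign in Lcn2-/- mice, and the 5 called in Lcn2-/- mice alone had the same sign in WT. The remaining 45 genes were called in neither genotype.

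**Figure D1:**
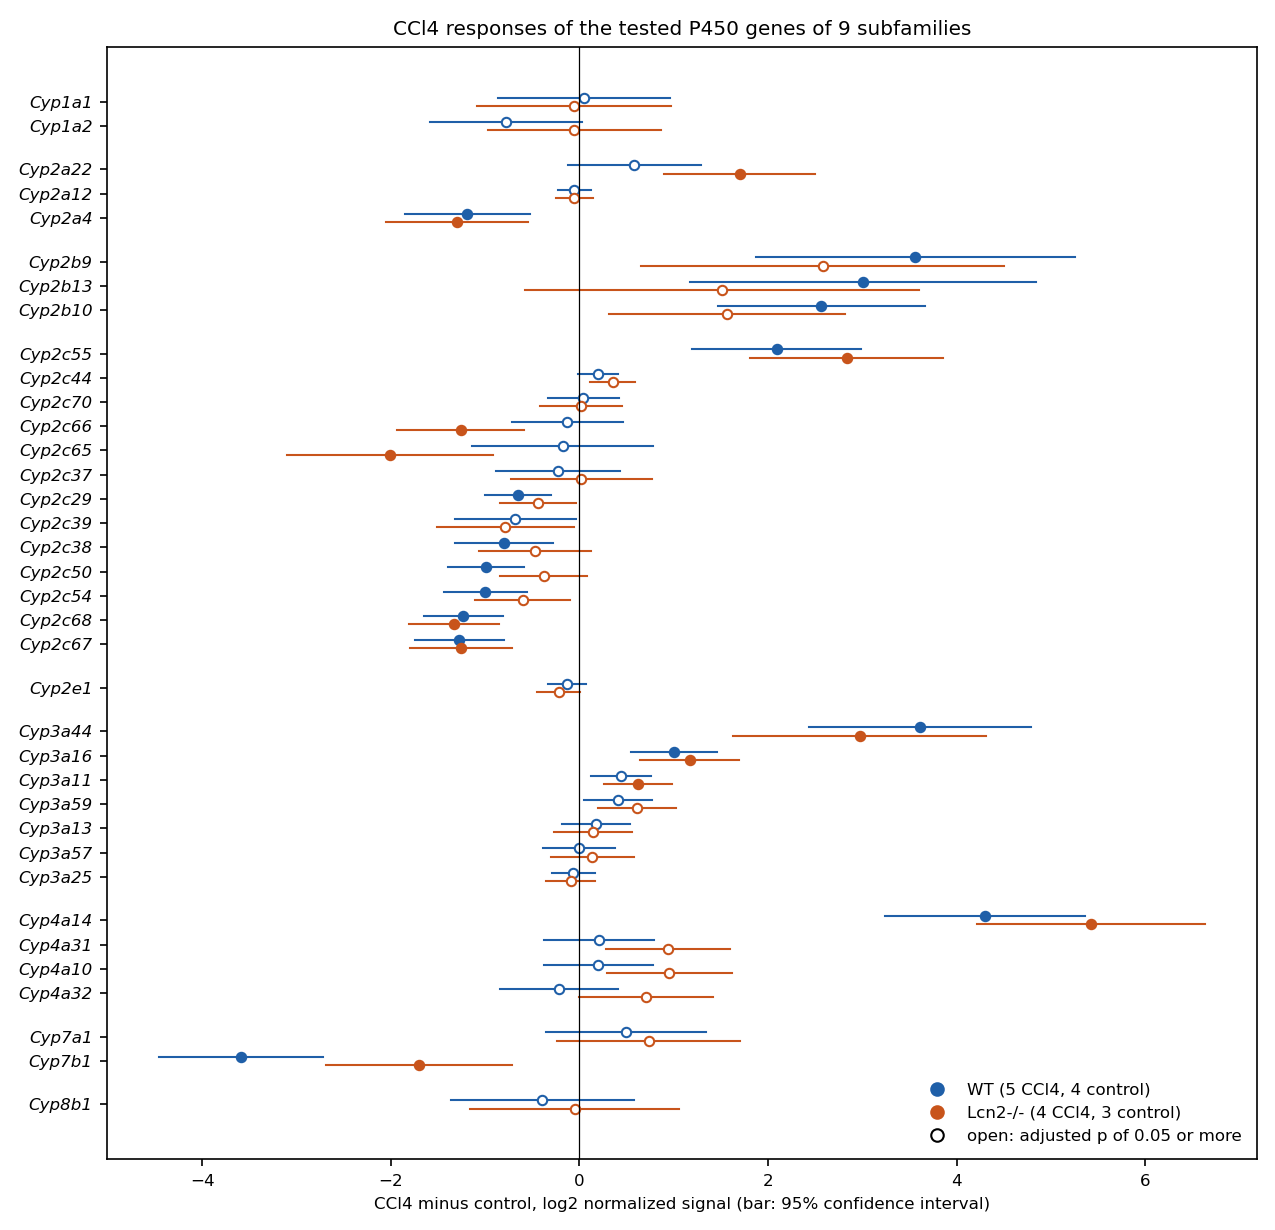
Log2 difference between CCl4 and control arrays for the 36 tested genes of the named subfamilies, in WT and in Lcn2-/- mice. Bars are 95% confidence intervals and filled points have a limma adjusted p under 0.05. Cyp4a14, Cyp3a44 and the 2b genes lie far to the right, Cyp7b1 far to the left, and most 2c genes lie to the left of 0.

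These counts depended on how the arrays were scaled and on the slide. The shares of all genes given above belong to the main fit, so the counts in this paragraph describe the members alone. When each array was divided by its 75th percentile in place of quantile normalization, the median of all genes moved to -0.16 in WT and -0.14 in Lcn2-/- mice, and the WT calls became 11 higher and 27 lower and the Lcn2-/- calls 8 higher and 14 lower. With slide as a fixed block, 1 WT CCl4 array alone links treatment and slide. Each WT response with the block is therefore that array minus the WT controls. The Lcn2-/- responses with the block rest on the same array through the slide term. Values with the slide block thus hang on 1 mouse that is also in the main fit. All 25 WT and 19 Lcn2-/- calls kept their direction with it. Their median size was 1.09 and 1.2 times the value without the block. Of them 9 (4 higher, 5 lower) and 6 (3 higher, 3 lower) still passed. The 9 in WT were Cyp4a14, Cyp3a44, Cyp39a1, Cyp2c55, Cyp7b1, Cyp2g1, Cyp2c67, Cyp2c68 and Cyp2j5, and the 6 in Lcn2-/- mice were Cyp4a14, Cyp39a1, Cyp2c55, Cyp2g1, Cyp2j5 and Cyp2c66. The other calls in each genotype were lost with the block, and their values with it are given beside them below. The first slide alone, with that 1 WT CCl4 array, gave the same WT values as the block. Its spread comes from the controls, and the fit assumes that the lone array varies like them. Without both control arrays numbered 3, there were 11 higher and 19 lower members in WT and 8 higher and 10 lower in Lcn2-/- mice. Leaving out WT control 2 left 9 lower members in WT, leaving out Lcn2-/- control 1 or 2 left 6 lower in Lcn2-/- mice, and leaving out Lcn2-/- CCl4 4 gave 15 higher in Lcn2-/- mice. The replicate numbers as a block ended 4 WT calls, those of Cyp26a1 (0.88), Cyp2b13 (2.44), Cyp2d13 (-0.57) and Cyp4f14 (-0.35), and no filter on dim probes ended those of Cyp26a1, Cyp2c38 and Cyp2d13. Where a call is said below to be lost without some arrays, the values in parentheses span all 16 fits that left out 1 array.

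The fatty acid hydroxylases of family 4 held the largest rise of any tested member. Cyp4a14 (chr4:115158914-115158973), an ω-hydroxylase of medium and long chain fatty acids and a known PPARα target, measured 6.74, 6.46, 8.46 and 8.43 on the WT control arrays, 6.21, 6.54 and 6.66 on the Lcn2-/- control arrays, 11.94, 11.14, 11.04, 12.20 and 12.78 on the WT CCl4 arrays, and 12.84, 12.24, 11.37 and 11.13 on the Lcn2-/- CCl4 arrays. All 9 CCl4 arrays lay above all 7 control arrays. Cyp4a14 rose by 4.30 (SE 0.50, adjusted p 4.96e-05) in WT, or 19.7-fold, and by 5.43 (SE 0.56, adjusted p 3.94e-05) in Lcn2-/- mice, or 43.0-fold. With the slide block the rises were 4.42 (adjusted p 0.011) and 5.58 (adjusted p 0.0157), and normexp background correction gave 4.54 in Lcn2-/- mice.

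On the brightest probe of each gene, its relatives Cyp4a10, Cyp4a31 and Cyp4a32 did not pass the test. Cyp4a10 (chr4:115206200-115206259), another PPARα target of the same enzyme group, measured 12.36, 12.09, 12.15 and 13.24 on the WT control arrays, 12.22, 12.54 and 11.84 on the Lcn2-/- control arrays, 12.43, 12.63, 12.37, 12.96 and 12.91 on the WT CCl4 arrays, and 13.63, 13.42, 13.11 and 12.46 on the Lcn2-/- CCl4 arrays. Controls and CCl4 arrays overlapped in WT, and in Lcn2-/- mice the CCl4 arrays overlapped the controls as well. The Cyp4a10 difference was 0.20 (SE 0.27, adjusted p 0.666) in WT and 0.95 (SE 0.31, adjusted p 0.0582) in Lcn2-/- mice, Cyp4a31 differed by 0.21 (SE 0.27, adjusted p 0.653) and 0.94 (SE 0.31, adjusted p 0.0621), and Cyp4a32 by -0.21 (SE 0.29, adjusted p 0.668) and 0.71 (SE 0.33, adjusted p 0.191).

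The probes of Cyp4a10 and Cyp4a31 show how little sequence separates these neighbours on the array. The pair below, chosen because both read the same stretch of the transcripts, is written from the array's own probe sequences, 60 bases 5′ to 3′, with mm9 positions chr4:115198463-115198522 and chr4:115243923-115243982. Capitals mark the 6 bases that differ.
Cyp4a10: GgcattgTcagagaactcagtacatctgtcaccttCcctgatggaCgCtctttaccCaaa
Cyp4a31: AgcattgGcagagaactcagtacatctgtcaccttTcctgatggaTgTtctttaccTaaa
Counted from the 5′ end, with the Cyp4a10 base first, the differences are G1A, T8G, C36T, C46T, C48T and C57T.

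These are not the brightest probes of their genes, and the probes of both genes gave unlike responses. The Cyp4a10 probe above, whose accessions also name Cyp4a32, differed by -0.56 in WT, another probe by 0.96, and the brightest by 0.20. In Lcn2-/- mice the second of these, which names Cyp4a10 alone, rose by 1.98 (adjusted p 0.00326 over all probes tested), while the others differed by 0.32 (adjusted p 0.621) and 0.95 (adjusted p 0.0627). The Cyp4a31 probe above differed by -1.47 in WT (adjusted p 0.000392 over all probes tested), a dimmer probe by 0.29 and the brightest by 0.21. The brightest probes of both genes share 44 of 47 overlapping bases. Values for Cyp4a10 and Cyp4a31 are therefore uncertain.

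Among the other tested members of family 4 the changes were smaller. Cyp4f16 rose by 0.86 (SE 0.24, adjusted p 0.0261) in WT and 1.04 (SE 0.28, adjusted p 0.0242) in Lcn2-/- mice. The WT call was lost without any 1 of WT control 1 or 2 and WT CCl4 1, 2 or 4 (values 0.69 to 1.06, highest adjusted p 0.0986), and the Lcn2-/- call without any 1 of Lcn2-/- control 1 or 2 and Lcn2-/- CCl4 2 or 3 (values 0.83 to 1.30, highest adjusted p 0.127). Its values under the slide block were 1.23 (adjusted p 0.0971) and 1.51 (adjusted p 0.141). Cyp4f14, a leukotriene B4 ω-hydroxylase, fell by 0.38 (SE 0.10, adjusted p 0.0222) in WT, where the call was lost without WT control 1, WT control 2 or WT CCl4 1 (values -0.43 to -0.33, highest adjusted p 0.0863), and its difference was -0.04 (SE 0.12, adjusted p 0.873) in Lcn2-/- mice. The slide block gave -0.51 (adjusted p 0.107) for the WT value. The family 4 list has 16 tested genes and holds 3 symbols outside the naming pattern. In WT 2 of the 16 were higher (12.5%, against 8.01% of all genes) and 4 lower (25%, against 8.8%). In Lcn2-/- mice 2 were higher (12.5%, against 6.57%) and 0 lower (against 5.61%). The 3 symbols outside the pattern, Cyp4a12a, Cyp4a12b and Cyp4a30b, fell as well in WT. Cyp4a12a fell by 2.07 and Cyp4a12b fell by 1.96. Cyp4a30b was above background on 5 arrays, so that the size of its fall was not measured.

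Subfamily 2b holds drug-oxidising enzymes, of which Cyp2b10 is the classical target of CAR. All 3 tested genes rose in WT and none passed in Lcn2-/- mice, where 2 of the 3 had an unadjusted p under 0.05. Over all genes 8.01% rose in WT and 6.57% in Lcn2-/- mice. Cyp2b10 (chr7:26711522-26711581) measured 12.40, 11.41, 12.89 and 12.52 on the WT control arrays, 13.38, 13.24 and 13.54 on the Lcn2-/- control arrays, 15.43, 14.25, 13.39, 15.32 and 15.97 on the WT CCl4 arrays, and 15.20, 16.03, 14.81 and 13.78 on the Lcn2-/- CCl4 arrays. Every CCl4 array lay above the controls of its own genotype. Cyp2b10 rose by 2.57 (SE 0.51, adjusted p 0.00329) in WT, or 5.93-fold, and its difference in Lcn2-/- mice was 1.57 (SE 0.58, adjusted p 0.0973).

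Cyp2b9 (chr7:26983484-26983543), which in adult mice is known as a female-predominant gene, measured 5.49, 4.13, 6.05 and 6.54 on the WT control arrays, 6.18, 5.46 and 7.25 on the Lcn2-/- control arrays, 9.93, 8.30, 6.94, 10.20 and 10.20 on the WT CCl4 arrays, and 9.68, 10.12, 8.84 and 6.86 on the Lcn2-/- CCl4 arrays. The WT CCl4 arrays lay above the WT controls, while in Lcn2-/- mice the groups overlapped. Cyp2b9 rose by 3.56 (SE 0.79, adjusted p 0.00673) in WT, or 11.8-fold, and its difference in Lcn2-/- mice was 2.58 (SE 0.90, adjusted p 0.0779). It was well above background on 3 of 4 WT control and 2 of 3 Lcn2-/- control arrays, and normexp background correction gave a WT rise of 2.37. Cyp2b13, also female-predominant, rose by 3.01 (SE 0.86, adjusted p 0.0269) in WT and differed by 1.51 (SE 0.98, adjusted p 0.343) in Lcn2-/- mice. The Cyp2b13 call in WT was lost without any 1 of WT control 1, 2 or 4 and WT CCl4 4 or 5 (values 2.44 to 3.44, highest adjusted p 0.0777). The difference between the responses of the genotypes was tested for all 3 genes and did not pass, with values of -1.0 (SE 0.78, adjusted p 1.000) for Cyp2b10, -0.98 (SE 1.2, adjusted p 1.000) for Cyp2b9 and -1.50 (SE 1.30, adjusted p 1.000) for Cyp2b13. With the slide block the WT rise was 3.12 for Cyp2b10 (adjusted p 0.0552), 4.38 for Cyp2b9 (adjusted p 0.0796) and 2.14 (adjusted p 0.427) for Cyp2b13.

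The promoters of these 3 genes are printed because the genes moved together in WT. They are the 250 bases before the RefSeq transcription start on GRCm38.p6, plus strand, at chr7:25897408-25897657 for Cyp2b10, chr7:26173159-26173408 for Cyp2b9 and chr7:26061245-26061494 for Cyp2b13. Capitals mark matches, on either strand, to the 4 motifs searched, which were TATAAA (the TATA box core), GCGTG (the core read by the aryl hydrocarbon receptor), AGGTCA (the core of nuclear receptor elements) and GTTAAT (a stretch of the HNF1 element).
Cyp2b10: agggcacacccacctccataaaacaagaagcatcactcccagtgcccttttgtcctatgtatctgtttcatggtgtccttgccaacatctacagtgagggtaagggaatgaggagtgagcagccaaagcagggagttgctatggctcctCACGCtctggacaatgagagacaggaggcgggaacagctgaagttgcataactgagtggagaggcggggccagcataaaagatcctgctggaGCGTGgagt
Cyp2b9: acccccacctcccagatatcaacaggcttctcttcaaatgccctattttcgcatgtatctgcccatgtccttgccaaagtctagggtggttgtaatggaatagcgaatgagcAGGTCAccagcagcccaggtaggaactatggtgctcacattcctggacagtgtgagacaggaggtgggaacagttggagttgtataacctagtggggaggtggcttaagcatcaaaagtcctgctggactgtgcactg
Cyp2b13: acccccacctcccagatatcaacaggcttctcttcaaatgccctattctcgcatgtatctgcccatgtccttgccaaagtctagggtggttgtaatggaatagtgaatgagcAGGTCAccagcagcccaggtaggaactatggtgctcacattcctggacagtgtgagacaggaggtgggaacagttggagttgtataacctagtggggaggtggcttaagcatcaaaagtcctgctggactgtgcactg
Cyp2b10 holds GCGTG at 9 to 5 bases before the start and, on the other strand, at 101 to 97 bases before it. Cyp2b9 and Cyp2b13 each hold AGGTCA at 138 to 133 bases before the start. The windows of Cyp2b9 and Cyp2b13 are identical at 248 of 250 bases (99.2%) and differ by T48C and C104T, counted from the 5′ end of the window with the Cyp2b9 base first. Cyp2b10 matches each of them at 182 of 260 aligned positions (70%).

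**Figure D2:**
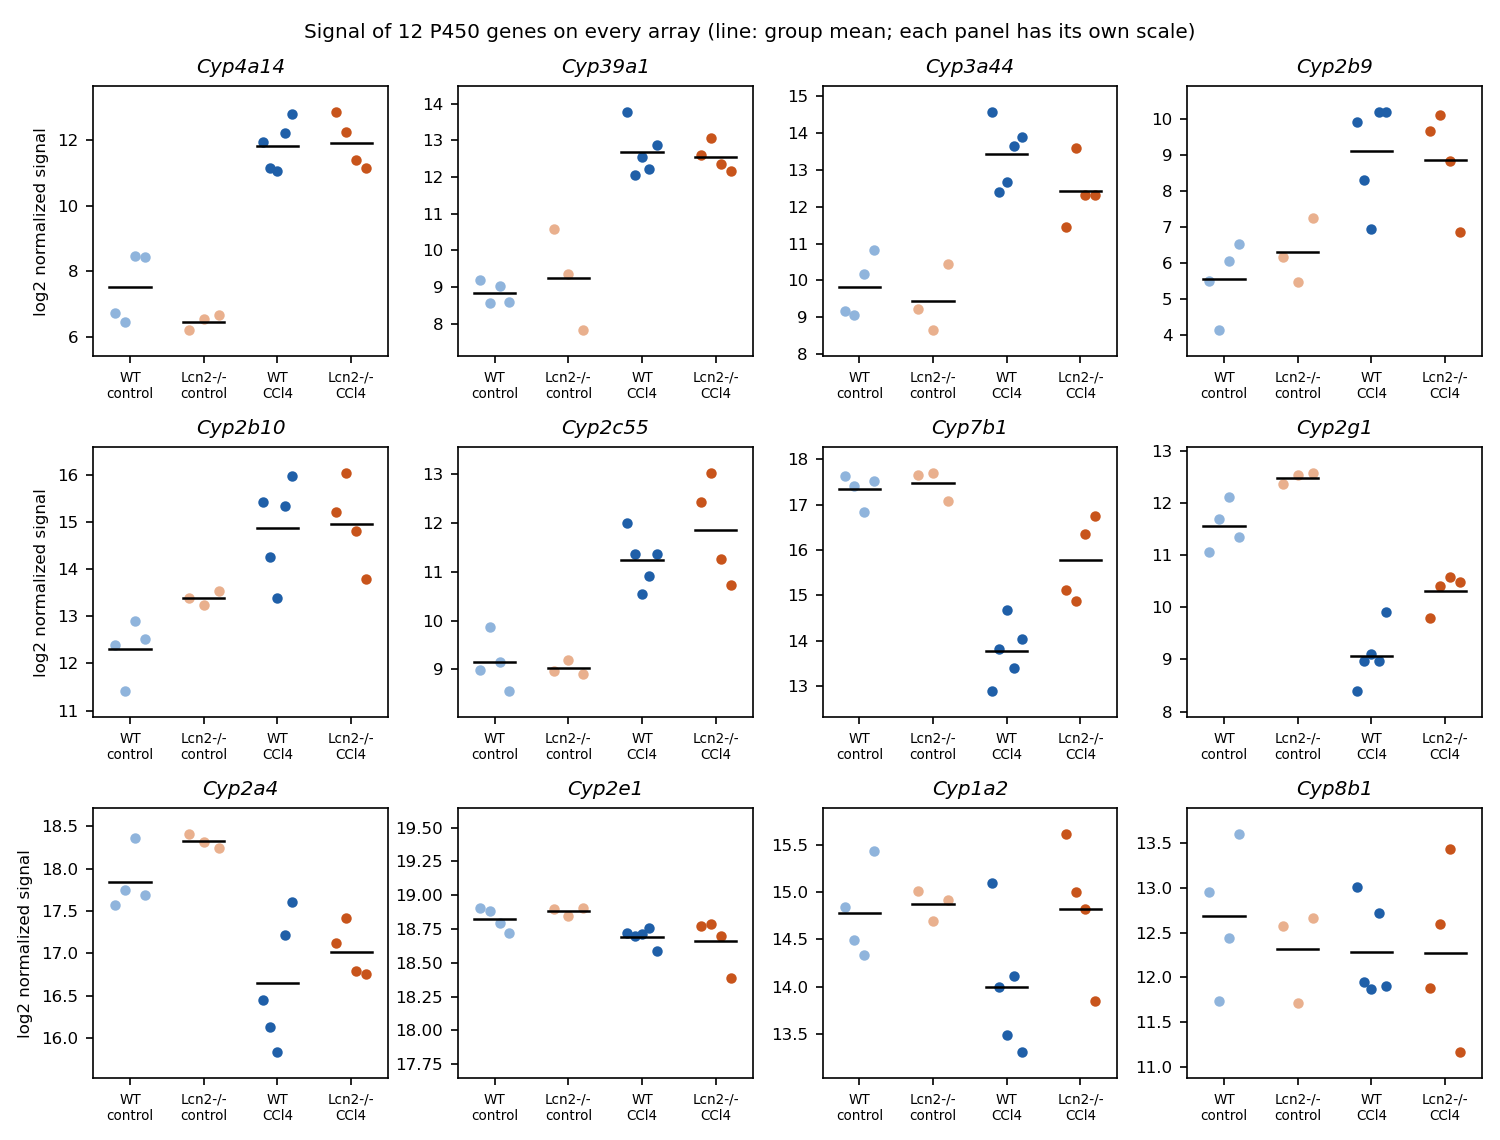
Log2 quantile-normalized signal of 12 P450 genes on each of the 16 arrays, by group. Points are arrays, black lines are group means, and each panel has its own vertical scale. Cyp4a14, Cyp39a1, Cyp3a44 and Cyp2c55 are higher on all CCl4 arrays than on all controls, Cyp7b1 and Cyp2g1 are lower, and Cyp2e1 and Cyp8b1 overlap between WT groups.

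Subfamily 3a, a main drug-oxidising group of the liver, moved upward where it moved. In WT 2 of 7 tested genes rose (28.6%, against 8.01% of all genes) and in Lcn2-/- mice 3 of 7 (42.9%, against 6.57%). In neither genotype did any fall. Cyp3a44 (chr5:146585717-146585776), known in adult mice as female-predominant, measured 9.17, 9.06, 10.18 and 10.83 on the WT control arrays, 9.22, 8.65 and 10.46 on the Lcn2-/- control arrays, 14.56, 12.38, 12.66, 13.64 and 13.88 on the WT CCl4 arrays, and 11.45, 13.60, 12.30 and 12.31 on the Lcn2-/- CCl4 arrays. All CCl4 arrays exceeded all controls. Cyp3a44 rose by 3.61 (SE 0.55, adjusted p 0.000446) in WT, or 12.2-fold, and by 2.97 (SE 0.63, adjusted p 0.00657) in Lcn2-/- mice, or 7.85-fold. Cyp3a16, known as a fetal and female-predominant gene, rose by 1.0 (SE 0.22, adjusted p 0.00531) and 1.17 (SE 0.25, adjusted p 0.00624). The slide block gave Cyp3a44 a difference of 4.75 (adjusted p 0.00823) in WT and 4.39 (adjusted p 0.0541) in Lcn2-/- mice, and Cyp3a16 one of 1.09 (adjusted p 0.111) and 1.28 (adjusted p 0.177).

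Cyp3a11 (chr5:146666237-146666296), the main hepatic member and the classical PXR target, measured 17.58, 16.96, 17.05 and 17.32 on the WT control arrays, 16.90, 17.15 and 16.69 on the Lcn2-/- control arrays, 17.77, 17.74, 17.59, 17.79 and 17.44 on the WT CCl4 arrays, and 17.74, 17.35, 17.66 and 17.38 on the Lcn2-/- CCl4 arrays. The WT groups overlapped and the Lcn2-/- groups did not. Cyp3a11 rose by 0.62 (SE 0.17, adjusted p 0.0265) in Lcn2-/- mice, a call lost without any 1 of Lcn2-/- control 1 or 3 and Lcn2-/- CCl4 1 or 3 (values 0.51 to 0.74, highest adjusted p 0.0948), and its difference was 0.44 (SE 0.15, adjusted p 0.0546) in WT. The Lcn2-/- value under the slide block was 0.74 (adjusted p 0.254), and scaling by the 75th percentile gave 0.40 and no call. Its second probe gave 1.33 and 1.59, but the accessions of that probe also name Cyp3a41a, Cyp3a41b and Cyp3a44. Its sequence, 60 bases 5′ to 3′ with no capitals, shows the stretch assigned to all of these genes.
Cyp3a11 second probe: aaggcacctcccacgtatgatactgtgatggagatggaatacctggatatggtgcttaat
Cyp3a13, Cyp3a25 and Cyp3a57 were within 0.18 of their controls in both genotypes, and Cyp3a59 differed by 0.41 (SE 0.17, adjusted p 0.114) in WT and 0.61 (SE 0.19, adjusted p 0.0520) in Lcn2-/- mice.

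The promoters of the pair of 3a genes that rose in both genotypes are printed for the same reason, from the minus strand of GRCm38.p6 at chr5:145469724-145469973 for Cyp3a16 and chr5:145805875-145806124 for Cyp3a44, with the same motifs in capitals.
Cyp3a16: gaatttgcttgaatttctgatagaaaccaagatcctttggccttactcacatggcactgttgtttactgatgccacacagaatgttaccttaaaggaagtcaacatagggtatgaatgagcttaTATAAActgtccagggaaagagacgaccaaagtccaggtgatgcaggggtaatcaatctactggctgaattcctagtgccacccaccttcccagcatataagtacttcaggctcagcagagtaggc
Cyp3a44: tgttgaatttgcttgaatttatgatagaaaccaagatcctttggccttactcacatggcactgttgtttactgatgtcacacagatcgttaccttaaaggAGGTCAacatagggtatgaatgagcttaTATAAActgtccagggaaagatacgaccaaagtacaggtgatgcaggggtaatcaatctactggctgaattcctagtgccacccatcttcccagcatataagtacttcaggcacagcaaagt
Both hold TATAAA, at 126 to 121 bases before the start in Cyp3a16 and at 122 to 117 in Cyp3a44, and Cyp3a44 alone of the pair also holds AGGTCA, at 150 to 145. The windows match at 236 of 254 aligned positions (92.9%), while Cyp3a11 matches Cyp3a16 at 76.6% and Cyp3a44 at 72.5%.

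Subfamily 2c, epoxygenases and hydroxylases of drugs, arachidonic acid and steroids, moved mostly downward. Of 13 tested genes 6 fell in WT (46.2%, against 8.8% of all genes) and 1 rose (7.69%, against 8.01%). In Lcn2-/- mice 4 fell (30.8%, against 5.61%) and 1 rose (7.69%, against 6.57%). The median was -0.65 in WT and -0.47 in Lcn2-/- mice. Cyp2c67 fell by 1.27 (SE 0.22, adjusted p 0.00123) in WT and 1.25 (SE 0.25, adjusted p 0.00491) in Lcn2-/- mice, and Cyp2c68 by 1.23 (SE 0.20, adjusted p 0.000611) and 1.33 (SE 0.22, adjusted p 0.00153). Both kept their WT call in every alternative tried, but their probes share 55 of 59 overlapping bases and those of Cyp2c68 also name Cyp2c40 and Cyp2c69, so that the genes may be read together. In Lcn2-/- mice the slide block gave -1.42 (adjusted p 0.145) for Cyp2c67 and -1.44 (adjusted p 0.0976) for Cyp2c68.

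Cyp2c54 and Cyp2c50, both known from the layers around the central vein, fell by 1.0 (SE 0.21, adjusted p 0.00396) and 0.99 (SE 0.19, adjusted p 0.00232) in WT, and differed by -0.60 (SE 0.23, adjusted p 0.111) and -0.38 (SE 0.22, adjusted p 0.274) in Lcn2-/- mice. The slide block ended both WT calls, at -0.46 (adjusted p 0.410) and -0.61 (adjusted p 0.267). Cyp2c29, from the same zone, fell by 0.65 (SE 0.17, adjusted p 0.0146) in WT and missed the threshold without WT control 2, at an adjusted p of 0.0524, and with the slide block, at -0.38 (adjusted p 0.448). Cyp2c38 fell by 0.80 (SE 0.24, adjusted p 0.0373) in WT, a call lost without any 1 of WT control 1, 2 or 4 and WT CCl4 1, 2, 3 or 4 (values -0.92 to -0.69, highest adjusted p 0.122), and its second probe gave 0.43. Its value with the slide block was -0.64 (adjusted p 0.411), and the mean of its probes gave -0.19 and no call. Other members of the subfamily, such as Cyp2c37, Cyp2c39 and Cyp2c44, were not called in either genotype.

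Cyp2c70 (chr19:40227969-40228028), which makes the muricholic acids of mouse bile, measured 17.98, 17.70, 17.92 and 17.98 on the WT control arrays, 18.11, 18.02 and 18.21 on the Lcn2-/- control arrays, 17.97, 17.73, 17.56, 18.06 and 18.35 on the WT CCl4 arrays, and 17.61, 18.37, 18.13 and 18.39 on the Lcn2-/- CCl4 arrays. The groups overlapped in both genotypes. Its differences were 0.04 (SE 0.18, adjusted p 0.904) in WT and 0.02 (SE 0.20, adjusted p 0.969) in Lcn2-/- mice, with a 95% interval of -0.34 to 0.42 in WT.

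Cyp2c55 (chr19:39116674-39116733), known from the intestine and as a gene that CAR and PXR activators raise in liver, measured 8.99, 9.87, 9.16 and 8.56 on the WT control arrays, 8.97, 9.20 and 8.90 on the Lcn2-/- control arrays, 11.99, 11.36, 10.54, 10.92 and 11.36 on the WT CCl4 arrays, and 12.43, 13.02, 11.26 and 10.73 on the Lcn2-/- CCl4 arrays. All CCl4 arrays lay above all controls. Cyp2c55 rose by 2.09 (SE 0.42, adjusted p 0.00343) in WT and 2.84 (SE 0.48, adjusted p 0.00158) in Lcn2-/- mice, and it passed with the slide block in both, at 2.85 and 3.78.

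Cyp2c65 and Cyp2c66 were called lower in Lcn2-/- mice. Cyp2c65 met the limit of 3 arrays with exactly 3, of which 2 were Lcn2-/- controls, the group where it is highest. Its call therefore rests on the group that admitted it to the test, and it gives no separate evidence of a fall, though it is counted among the lower members. Cyp2c66 differed by -0.13 (SE 0.28, adjusted p 0.796) in WT, and the difference between the genotypes' responses was -1.13 (SE 0.42, adjusted p 1.000). Cyp2c65 was well above background on 2 of 3 Lcn2-/- control arrays, 1 of 5 WT CCl4 arrays and none of the others, so that its WT difference is not given, and in the quantile-normalized values its fall is at least 2.74-fold, with a fitted adjusted p of 0.0188, between measured means of 6.66 and 4.65. That call was lost without Lcn2-/- control 1, Lcn2-/- control 2 or Lcn2-/- CCl4 3 (values -2.60 to -1.60, highest adjusted p 0.107), and with the slide block the value was -1.30 (adjusted p 0.521). Normexp background correction gave -0.89, and both values are smaller than that bound, which therefore depends on the processing. For Cyp2c66 normexp gave -0.53. Cyp2c66, whose probe also names Cyp2c65, fell by 1.26 (SE 0.31, adjusted p 0.0174), with 1 of 4 Lcn2-/- CCl4 arrays well above background, and lost the call without Lcn2-/- control 1 or 2 (values -1.58 to -1.01, highest adjusted p 0.0992), while the slide block gave -2.25 (adjusted p 0.0306).

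In subfamilies 1a, 2a and 2e, Cyp2a4 and Cyp2a22 carried the calls. Cyp1a2 (chr9:57528060-57528119), a target of the aryl hydrocarbon receptor found around the central vein, measured 14.85, 14.50, 14.33 and 15.44 on the WT control arrays, 15.02, 14.70 and 14.92 on the Lcn2-/- control arrays, 15.09, 14.00, 13.49, 14.11 and 13.31 on the WT CCl4 arrays, and 15.62, 15.01, 14.82 and 13.85 on the Lcn2-/- CCl4 arrays. The groups overlapped in both genotypes, with differences of -0.78 (SE 0.38, adjusted p 0.179) and -0.05 (SE 0.43, adjusted p 0.954). With the slide block the WT value was 0.32 (adjusted p 0.776), and the 95% interval without it ran from -1.59 to 0.03. Cyp1a1, of the same subfamily, differed by 0.05 (SE 0.42, adjusted p 0.957) and -0.06 (SE 0.48, adjusted p 0.956).

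Cyp2e1 (chr7:147960628-147960687) measured 18.90, 18.88, 18.79 and 18.72 on the WT control arrays, 18.90, 18.85 and 18.90 on the Lcn2-/- control arrays, 18.72, 18.70, 18.71, 18.76 and 18.58 on the WT CCl4 arrays, and 18.77, 18.79, 18.70 and 18.39 on the Lcn2-/- CCl4 arrays. These values lie close to the highest on the arrays, which was 19.13 to 19.22. The WT groups overlapped, while in Lcn2-/- mice all CCl4 arrays lay below all controls. The differences were -0.13 (SE 0.09, adjusted p 0.375) in WT and -0.22 (SE 0.11, adjusted p 0.203) in Lcn2-/- mice. A second, dimmer probe of Cyp2e1 gave -0.72 in WT (adjusted p 0.000789 over all probes tested) and -0.15 in Lcn2-/- mice (adjusted p 0.495), so that the probes disagree in WT.

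Cyp2a12 (chr7:27821770-27821829), a steroid hydroxylase, measured 17.94, 17.83, 17.71 and 17.77 on the WT control arrays, 17.76, 17.88 and 17.67 on the Lcn2-/- control arrays, 17.73, 17.69, 17.75, 17.87 and 17.75 on the WT CCl4 arrays, and 17.65, 17.74, 17.74 and 17.74 on the Lcn2-/- CCl4 arrays. Its groups overlapped and its differences were -0.06 (SE 0.08, adjusted p 0.688) and -0.05 (SE 0.09, adjusted p 0.752). Cyp2a4 (chr7:27099880-27099939), a testosterone hydroxylase, measured 17.57, 17.75, 18.37 and 17.69 on the WT control arrays, 18.41, 18.31 and 18.25 on the Lcn2-/- control arrays, 16.45, 16.14, 15.84, 17.22 and 17.61 on the WT CCl4 arrays, and 17.12, 17.42, 16.79 and 16.76 on the Lcn2-/- CCl4 arrays. The CCl4 arrays were lower than the controls except for an overlap in WT. Cyp2a4 fell by 1.19 (SE 0.31, adjusted p 0.0169) in WT and 1.30 (SE 0.35, adjusted p 0.0270) in Lcn2-/- mice, the latter lost without any 1 of the 3 Lcn2-/- controls and Lcn2-/- CCl4 3 or 4 (values -1.43 to -1.21, highest adjusted p 0.0931). Both calls were lost under the slide block, at -1.39 (adjusted p 0.155) and -1.55 (adjusted p 0.262).

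Both Cyp2a4 probes carry accessions of Cyp2a4 and Cyp2a5, so the array does not tell these genes apart, and the dimmer probe, shown as the array gives it, fell by 1.48 in WT and 1.66 in Lcn2-/- mice.
Cyp2a4 and Cyp2a5: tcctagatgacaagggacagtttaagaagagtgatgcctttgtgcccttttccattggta
Cyp2a22 rose by 1.70 (SE 0.37, adjusted p 0.00835) in Lcn2-/- mice, where the slide block gave 1.22 (adjusted p 0.402), and differed by 0.58 (SE 0.33, adjusted p 0.252) in WT.

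Among the sterol and bile acid enzymes, Cyp7b1 fell and Cyp39a1 rose. Cyp7b1 (chr3:17972286-17972345), an oxysterol hydroxylase of the alternative bile acid pathway and male-predominant in mouse liver, measured 17.64, 17.41, 16.83 and 17.52 on the WT control arrays, 17.66, 17.70 and 17.08 on the Lcn2-/- control arrays, 12.88, 13.82, 14.67, 13.40 and 14.04 on the WT CCl4 arrays, and 15.11, 14.87, 16.35 and 16.76 on the Lcn2-/- CCl4 arrays. Every CCl4 array was below every control array, and the 5 WT CCl4 arrays all lay below the 4 Lcn2-/- CCl4 arrays. Cyp7b1 fell by 3.59 (SE 0.40, adjusted p 4.29e-05) in WT, or 12.04-fold, and by 1.71 (SE 0.46, adjusted p 0.0261) in Lcn2-/- mice, or 3.26-fold. With the slide block it fell by 4.47 (adjusted p 0.00179) in WT, and in Lcn2-/- mice its difference was -2.81 (adjusted p 0.084). The Lcn2-/- call was also lost without any 1 of Lcn2-/- control 1 or 2 and Lcn2-/- CCl4 1 or 2 (values -2.03 to -1.41, highest adjusted p 0.0983).

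Cyp39a1 (chr17:43887735-43887794), an oxysterol hydroxylase of the endoplasmic reticulum and female-predominant in mouse liver, measured 9.19, 8.57, 9.03 and 8.61 on the WT control arrays, 10.58, 9.36 and 7.83 on the Lcn2-/- control arrays, 13.77, 12.05, 12.55, 12.21 and 12.87 on the WT CCl4 arrays, and 12.59, 13.06, 12.34 and 12.16 on the Lcn2-/- CCl4 arrays. All CCl4 arrays stood above all controls. Cyp39a1 rose by 3.84 (SE 0.46, adjusted p 6.34e-05) in WT, or 14.3-fold, and by 3.28 (SE 0.52, adjusted p 0.00100) in Lcn2-/- mice, or 9.71-fold. The Lcn2-/- value was 2.57 without Lcn2-/- control 3, 3.94 without Lcn2-/- control 1, 2.46 with array weights and 4.63 (adjusted p 0.0139) with the slide block, and it passed in each. In WT the slide block gave 4.92 (adjusted p 0.00179). Its probe lies in row 1 of the 384 rows of the array, where the other 87 tested probes had a median WT difference of -0.05.

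Cyp8b1 (chr9:121824595-121824654), which sets the share of cholic acid, measured 12.95, 11.74, 12.44 and 13.60 on the WT control arrays, 12.58, 11.71 and 12.66 on the Lcn2-/- control arrays, 13.00, 11.95, 11.87, 12.71 and 11.91 on the WT CCl4 arrays, and 11.88, 12.59, 13.44 and 11.17 on the Lcn2-/- CCl4 arrays. The groups overlapped and the differences were -0.39 (SE 0.45, adjusted p 0.602) and -0.05 (SE 0.52, adjusted p 0.965). Cyp7a1, the rate-limiting enzyme of the classical pathway, differed by 0.49 (SE 0.40, adjusted p 0.436) and 0.74 (SE 0.45, adjusted p 0.319), and Cyp27a1, the mitochondrial enzyme that starts the alternative pathway, by -0.52 (SE 0.41, adjusted p 0.428) and -0.20 (SE 0.47, adjusted p 0.830). Cyp46a1, the cholesterol hydroxylase best known from brain, differed by -0.64 (SE 0.22, adjusted p 0.0550) and -0.60 (SE 0.25, adjusted p 0.126). Of the 7 enzymes on the bile acid list 1 rose and 1 fell in each genotype (14.3% each). Over all genes 8.01% rose and 8.8% fell in WT, and 6.57% rose and 5.61% fell in Lcn2-/- mice.

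Among the members of the other subfamilies apart from Cyp39a1, the largest change in WT was that of Cyp2g1, a gene known mainly from olfactory mucosa. Cyp2g1 (chr7:27606111-27606170) measured 11.07, 11.70, 12.13 and 11.34 on the WT control arrays, 12.36, 12.53 and 12.57 on the Lcn2-/- control arrays, 8.39, 8.98, 9.11, 8.97 and 9.92 on the WT CCl4 arrays, and 9.80, 10.41, 10.59 and 10.48 on the Lcn2-/- CCl4 arrays. The CCl4 arrays of both genotypes lay below all controls. Cyp2g1 fell by 2.49 (SE 0.27, adjusted p 3.80e-05) in WT, or 5.60-fold, and by 2.17 (SE 0.31, adjusted p 0.000494) in Lcn2-/- mice, or 4.5-fold, and it passed with the slide block at -3.17 and -3.02.

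Cyp1b1, a polycyclic hydrocarbon and oestrogen hydroxylase known more from mesenchymal cells than from hepatocytes, rose by 1.92 (SE 0.38, adjusted p 0.00293) and 2.38 (SE 0.43, adjusted p 0.00234), and was well above background on 1 of 3 Lcn2-/- control arrays. Both calls were lost under the slide block, at 1.89 (adjusted p 0.116) and 2.36 (adjusted p 0.156), and normexp background correction gave 1.40 in Lcn2-/- mice. The stellate cell list rose in the same arrays, and its part in the Cyp1b1 rise was not tested. Cyp26a1, which clears retinoic acid, rose by 0.99 (SE 0.30, adjusted p 0.0335) in WT and differed by 1.0 (SE 0.34, adjusted p 0.0692) in Lcn2-/- mice. Its WT call was lost without any 1 of WT control 1, 2 or 4 and WT CCl4 1, 2, 4 or 5 (values 0.81 to 1.23, highest adjusted p 0.121) and with the slide block, at 0.92 (adjusted p 0.328). Cyp2r1, a vitamin D hydroxylase, fell by 0.66 (SE 0.16, adjusted p 0.00982) and 0.91 (SE 0.18, adjusted p 0.00388), but the slide block gave -0.19 (adjusted p 0.650) and -0.33 (adjusted p 0.579). Of 3 tested vitamin A and D enzymes 1 rose and 1 fell in WT, and 1 fell in Lcn2-/- mice, while the pair of tested steroid hormone enzymes, Cyp17a1 and Cyp21a1, was called in neither.

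In subfamily 2j, of arachidonic acid epoxygenases, Cyp2j5 fell by 0.97 (SE 0.15, adjusted p 0.000518) and 1.06 (SE 0.17, adjusted p 0.00129). Cyp2j7 fell by 0.66 (SE 0.17, adjusted p 0.0164) in WT, a call lost without WT control 1 or 2 (values -0.80 to -0.55, highest adjusted p 0.0627) and with the slide block, at -0.53 (adjusted p 0.325). All 9 tested genes of subfamily 2d had negative WT differences, between -0.54 and -0.06, but 1 passed, Cyp2d13, which fell by 0.54 (SE 0.17, adjusted p 0.0421). That call was lost in 11 of the 16 fits that left out 1 array (highest adjusted p 0.126) and with the slide block, at -0.31 (adjusted p 0.572). In Lcn2-/- mice Cyp2d40 fell by 0.86 (SE 0.20, adjusted p 0.0108), and the slide block gave -1.19 (adjusted p 0.108).

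Cyp2u1, a fatty acid hydroxylase, differed by -0.09 and -0.07 on its bright probe and fell by 1.77 (adjusted p 0.00149 over all probes tested) and 1.79 (adjusted p 0.00473) on its dimmer probe. The bright probe holds 15 repeats of TG in 30 of its 60 bases and is the 1 of 113 member probes with 6 or more such repeats. By RefSeq the dimmer probe names Cyp2u1, while the bright probe names no gene, so the value counted for Cyp2u1 is uncertain. The repeat and the dimmer probe are shown because the choice between them decides the value of the gene.
Cyp2u1 bright probe, bases 14 to 43: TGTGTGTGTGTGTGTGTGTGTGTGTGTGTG
Cyp2u1 dimmer probe: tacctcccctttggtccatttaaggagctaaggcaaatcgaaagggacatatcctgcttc

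**Figure D3:**
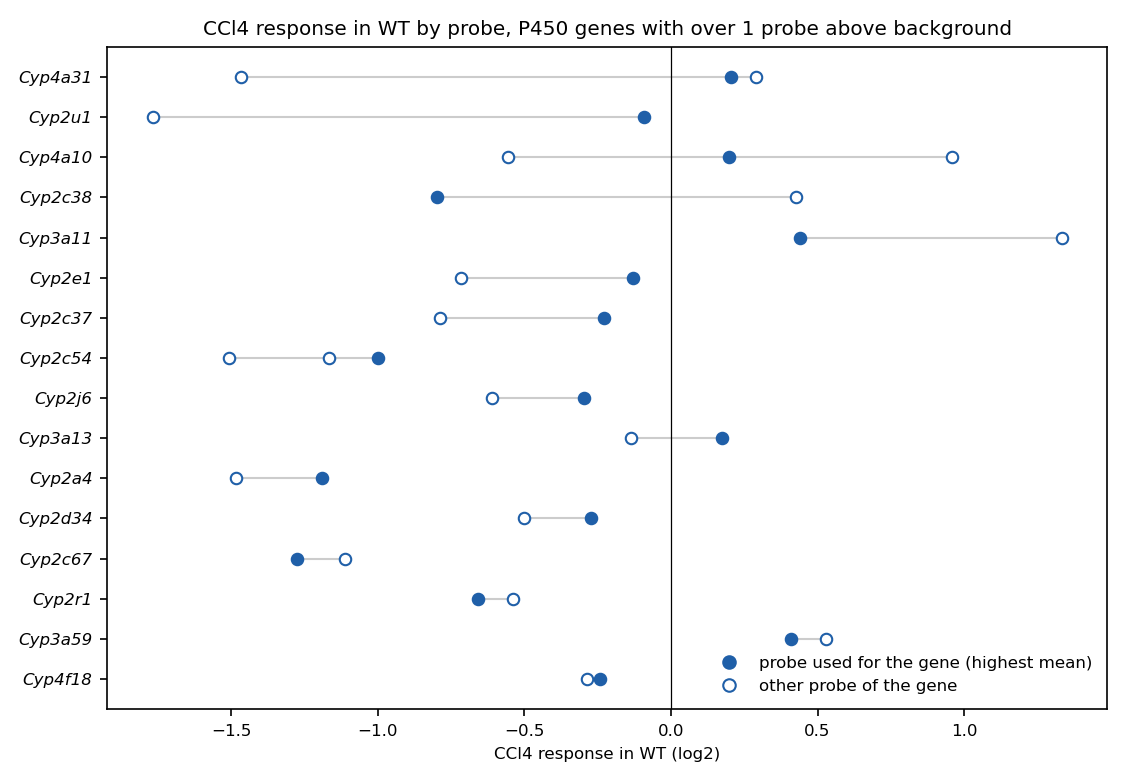
Log2 difference between CCl4 and control arrays in WT for each probe of the 16 P450 genes with more than 1 probe above background on 3 or more arrays, with the probe used for the gene filled. The probes of Cyp2u1, Cyp4a10, Cyp4a31, Cyp2c38 and Cyp3a11 lie apart, while those of Cyp2c67 lie at -1.27 and -1.11.

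The lists of known sex bias and zone cut across the subfamilies. Beside their counts, 8.01% of all genes rose and 8.8% fell in WT, and 6.57% rose and 5.61% fell in Lcn2-/- mice. Of 8 tested genes known as female-predominant, 6 rose in WT (Cyp2b9, Cyp2b13, Cyp3a16, Cyp3a41b, Cyp3a44 and Cyp39a1) and 1 fell (Cyp2a4), and in Lcn2-/- mice 4 rose and 1 fell. Their median difference was 2.09 in WT and 1.37 in Lcn2-/- mice. Cyp2c40 and Cyp2c69, of the same list, were not tested under their own symbols. The Cyp2c68 probe, which also names both, fell by 1.23 in WT and 1.33 in Lcn2-/- mice. Of 5 genes known as male-predominant, 3 fell in WT (Cyp7b1, Cyp4a12a and Cyp4a12b) and 1, Cyp7b1, in Lcn2-/- mice, with medians of -1.96 and -0.68. This counts Cyp2u1 by its bright probe, which names no gene by RefSeq. The dimmer probe, which does name Cyp2u1, fell in both genotypes, as given above. Of 9 tested genes known from the zone around the central vein, 3 fell in WT (Cyp2c29, Cyp2c50 and Cyp2c54) and 1, Cyp3a11, rose in Lcn2-/- mice, while the periportal pair Cyp2f2 and Cyp17a1 was called in neither. The central vein count takes Cyp2e1 by its bright probe, and its dimmer probe fell by 0.72 in WT (adjusted p 0.000789 over all probes tested). Cyp2a5, of the same zone, was not tested under its own symbol, and the Cyp2a4 probes that also name it fell in both genotypes. The lists were chosen with results of these data known, so the counts describe these arrays.

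The electron donors and regulators of the family were measured on the same arrays. Of 9 partners and haem enzymes, Por rose by 0.83 in WT (SE 0.26, adjusted p 0.0408) and Alas1, the rate-limiting enzyme of haem synthesis, by 1.2 (SE 0.35, adjusted p 0.0281), and 0 passed in Lcn2-/- mice, where 3 had an unadjusted p under 0.05. Of 18 transcription regulators, 2 rose and 3 fell in WT and 1 fell in Lcn2-/- mice. Over all genes 8.01% rose and 8.8% fell in WT, and 5.61% fell in Lcn2-/- mice. Nr1i3, which encodes CAR, fell by 1.33 in WT (SE 0.23, adjusted p 0.00119) and by 1.03 in Lcn2-/- mice (adjusted p 0.019). Its classical target Cyp2b10 rose in WT and did not pass in Lcn2-/- mice. Ahr fell by 0.56 and Nr5a2 by 0.55 in WT, and Esrra and Nfe2l2 rose by 0.38 and 0.68. Nr1i2, Ppara, Hnf4a, Nr1h4 and Nr0b2 were not called in either genotype. Values with the slide block or with 1 array left out are not given for these genes, nor for other genes named here outside the naming pattern. Their calls are therefore less checked than those of the members.

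**Figure D4:**
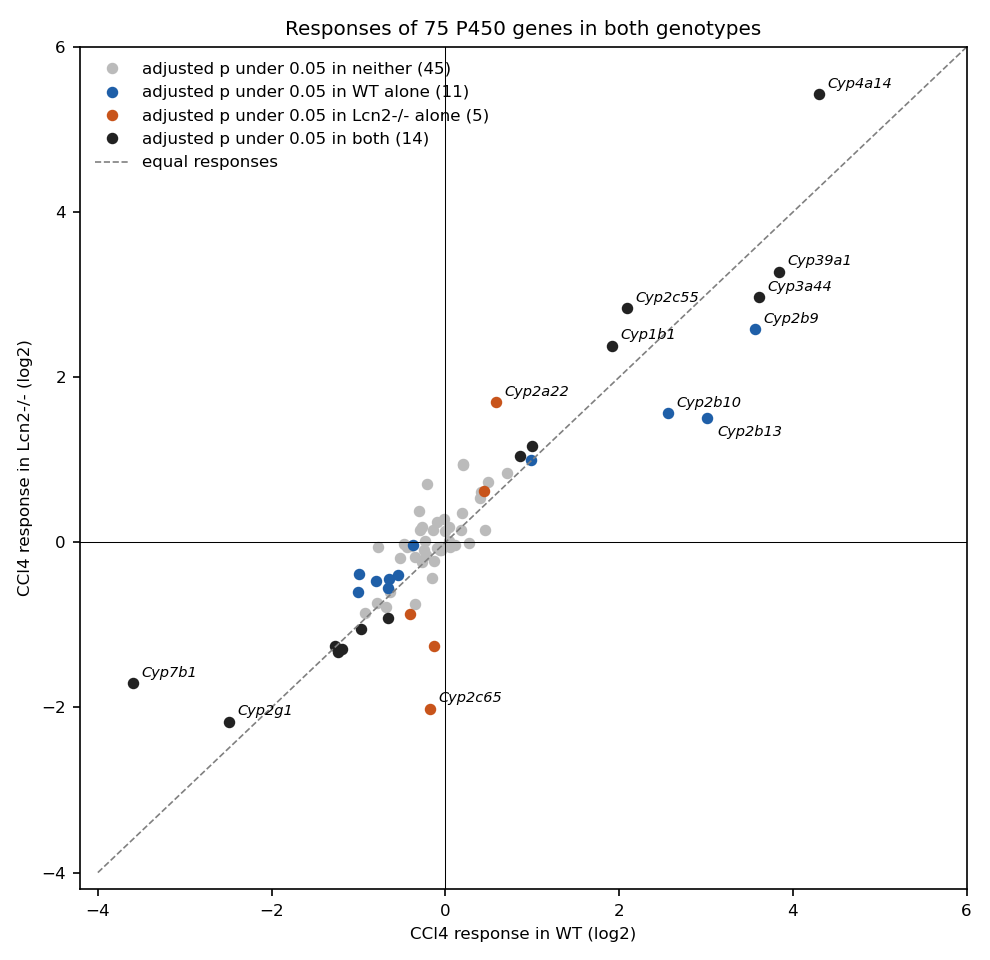
Log2 CCl4 response of the 75 tested P450 genes in WT (horizontal) and Lcn2-/- mice (vertical), with the calls in each genotype marked. Most genes lie near the line of equal response, and Cyp7b1 lies above it with a smaller fall in Lcn2-/- mice.

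To ask whether loss of Lcn2 altered these responses, the genotypes were compared directly. Over the 75 members the WT and Lcn2-/- responses correlated at r = 0.905 (rho = 0.864) across genes, as a description, since genes are not replicates. The difference between the responses passed for 0 of 75 members in limma (0.0534% of all genes passed), where 7 had an unadjusted p under 0.05 (811 of all 24357 genes did), namely Cyp2a22, Cyp2c65, Cyp2c66, Cyp2d9, Cyp2j6, Cyp4f14 and Cyp7b1. The count was also 0 with array weights, with the authors' normalized table and in every other alternative fit that gave it. The interval of the difference remained wide for the strong responders, and a p that missed the threshold does not show that the genotypes respond alike.

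Under CCl4, 1 of 75 members differed between the genotypes (0.636% of all genes did) and 15 had an unadjusted p under 0.05, as did 3335 of the 24357 genes tested. This was Cyp7b1, which was higher in Lcn2-/- than in WT CCl4 livers by 2.01 (SE 0.40, adjusted p 0.0401). Its arrays of both groups, given above, did not overlap. The call was lost in 11 of the 16 fits that left out 1 array (values 1.68 to 2.31, highest adjusted p 0.141), with the slide block (1.79, adjusted p 0.0749) and with the replicate numbers as a block (2.08, adjusted p 0.0917). Its difference in response was 1.88 (unadjusted p 0.0081, adjusted p 1.00). Cyp2g1 was higher by 1.24 (SE 0.27, adjusted p 0.0592). It passed with the replicate block (1.46, adjusted p 0.00158), array weights (adjusted p 0.0122) and without both controls numbered 3 (adjusted p 0.0482). It did not pass with the slide block (1.07, adjusted p 0.1), the array column block (adjusted p 0.0716) or 75th percentile scaling (adjusted p 0.0562). Normexp and the authors' table gave no call either (adjusted p 0.0691 in each). Under CCl4 equal replicate numbers had r of 0.012, 0.252, 0.0262 and -0.221. The difference was positive for 50 of the 75 members and for 12179 of the 24357 genes tested, but 74 of the members did not pass.

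In control livers 0 of 75 members differed between the genotypes in limma (0.53% of all genes did), and 8 had an unadjusted p under 0.05, as did 2021 of the 24357 genes tested. Array weights gave 4, and the authors' normalized table gave 1. The 0.53% belongs to the main fit, so these counts have no share of all genes beside them and describe the members alone. With the replicate numbers as a block, which pair the control arrays, 1 passed, Cyp2g1, at 0.94 (adjusted p 0.042). In the quantile-normalized values Cyp2c65 was at least 3.04-fold higher in Lcn2-/- controls, with a fitted adjusted p of 0.101. Its fitted log2 difference was 1.03 with normexp background correction, which is under that bound (adjusted p 0.0317). It also passed with the authors' normalized table (adjusted p 0.0245), array weights (adjusted p 0.0067) and the array column as a block (adjusted p 0.0134). The same held without both controls numbered 3 (adjusted p 0.0433). It did not pass with 75th percentile scaling (adjusted p 0.142), the replicate block (adjusted p 0.148) or the slide block (adjusted p 0.11). Cyp2c65 met the limit of 3 arrays through 2 Lcn2-/- control arrays and 1 WT CCl4 array, so the group where it is high admitted it. It was well above background on 0 of 4 WT control arrays. These fits therefore do not measure the size of the difference, and no genotype difference is drawn from them. Array position nearly coincided with genotype, with WT arrays mostly in the upper and Lcn2-/- arrays in the lower tier of the slide, and position and genotype cannot be told apart.

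**Figure D5:**
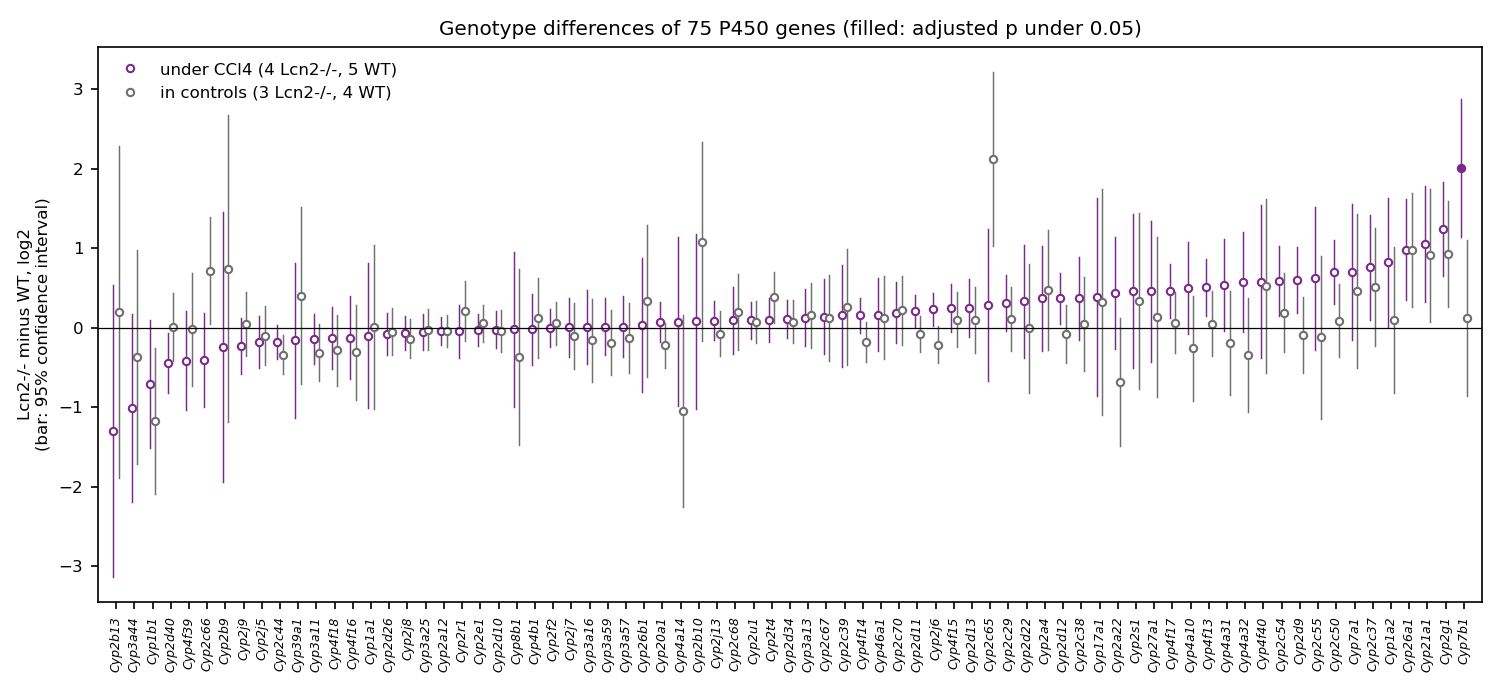
Log2 difference between Lcn2-/- and WT arrays for the 75 tested P450 genes, under CCl4 and in controls, with 95% confidence intervals. Filled points have an adjusted p under 0.05. Most genes lie near 0 and Cyp7b1 lies at 2.01 under CCl4.

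The RefSeq promoter table held a window for 68 of the 90 members and for 27025 genes in all, and those of Cyp7b1, Cyp4a14, Cyp39a1 and Cyp2g1 are among the members without one. TATAAA was found in 26 of the 68 windows (38.2%) against 14.3% of all genes, and AGGTCA in 18 (26.5%) against 15.8%. GCGTG was found in 14 (20.6%) against 30.9%, and GTTAAT in 7 (10.3%) against 7.49%. Among members with a window, TATAAA was in 3 of the 9 that rose in WT and in 5 of the 9 that fell, and AGGTCA was in 3 of the 9 that rose (Cyp2b9, Cyp2b13 and Cyp3a44) and in 2 of the 9 that fell (Cyp2c29 and Cyp2j5). A match describes the letters in the window and is not a site.

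Some members known from other organs were at or near background and others were not. Cyp11a1, Cyp2b19, Cyp2b23, Cyp2j11, Cyp2w1, Cyp26c1 and Cyp4x1 were well above background on 0 arrays, and Cyp11b1, Cyp11b2, Cyp19a1, Cyp24a1, Cyp27b1, Cyp2ab1 and Cyp4a29 on 1 or 2. Cyp21a1, an adrenal steroid hydroxylase, Cyp46a1 and Cyp2g1 were on all 16. Of the adrenal markers 3 of 6 were tested and 1, Hsd3b1, was called higher in both genotypes, with Star and Cyp21a1 on 16 arrays, Hsd3b1 on 10, and Cyp11b1, Cyp11b2 and Mc2r on 1 or 2. Among kidney markers, Slc34a1 and Aqp2 were on 16 arrays, Slc12a1 on 3, and Umod and Kap on 0, and limma called none of the tested ones named here in either genotype. Of 3 tested pancreas markers 1, Amy2a5, rose by 1.16 in WT and 0 were called in Lcn2-/- mice, with Amy2a5, Cela1 and Ins2 on 16 arrays, Cpa1 on 1, and Pnlip and Prss2 on 0.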

How the data were processed

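RNA was measured on 16 1-colour Agilent arrays. The deposited scanner text files hold spot intensity on a linear scale, made by the authors with Feature Extraction 10.7.3.1 per the file headers, with probe positions on mm9. A second deposited table, of log2 values, matched the quantile-normalized log2 of median signal minus background for 99.86% of values within 0.05 and served as an alternative. Here the processed signal of gene spots was quantile normalized on the log2 scale, with 3671 control spots and marked spots left out, spots of a probe averaged and probes kept if well above background on at least 3 arrays. All contrasts came from limma 3.58.1 (R 4.3.3), in 1 model over 4 groups without covariates, with Benjamini-Hochberg adjustment over 24357 genes and a threshold of 0.05. Where no array of a group was well above background, the fold is a bound, taken from the brighter mean and a floor, on each array the probe's signal or, if larger, the dimmest signal of any probe above background. Precision is limited by the number of arrays. The scripts were tested on simulated data. In controls, equal replicate numbers deviated together (r of 0.233, 0.368 and 0.552) and share an array column, so a fit with the numbers as a block was added beside the main values where it changed a call.

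Per-array values are given for the brightest member of each named subfamily, for its largest called WT change, and for Cyp39a1 and Cyp2g1. The members and gene lists were chosen with earlier results of these data known. Alternatives were the scaling, background correction, dim-probe filter, probe choice, array weights, slide, array column and replicate blocks, and leaving out arrays. Promoters come from a RefSeq table of GRCm38.p6, aligned with Biopython 1.88. Exon and UTR placement, and protein sequences, were not analysed here.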

Additional observations from a re-analysis of the deposited data

Results flagged for a closer look

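A highest or lowest array stood far from the rest of its group for 7 of 225 combinations of gene and group of 4 or 5 arrays. Chance gives about 1 in 20, so the count is not above chance, and no array is called aberrant from it. The measure is the gap to the nearest array as a share of the range of the group. Of the 7, 3 fell on Lcn2-/- CCl4 4. There Cyp2d11 was highest at 18.85 (0.872), Cyp2j8 lowest at 14.78 (0.831) and Cyp4f40 lowest at 4.99 (0.883). A further 2 fell on WT control 3, where Cyp2j5 was lowest at 11.12 (0.868) and Cyp4f18 highest at 9.92 (0.886). Cyp2a12 was lowest on Lcn2-/- CCl4 1 at 17.65 (0.922), and Cyp3a59 highest on WT CCl4 4 at 17.08 (0.711). Of these genes Cyp2j5 is the 1 called under CCl4, and its fall passed without WT control 3 as well.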

How the results depend on the processing

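The main counts were 14 lower and 11 higher members in WT, 10 lower and 9 higher in Lcn2-/- mice, 1 and 0 between genotypes under CCl4 and in controls, and 0 interactions, which stayed 0 throughout. None of the 45 calls reversed under any alternative. The counts under the alternatives have no share of all genes beside them and describe the members alone. Scaling by the 75th percentile gave 27 lower in WT and 0 between genotypes under CCl4. Normexp and the authors' table each gave 1 in controls, and no dim-probe filter gave 0 under CCl4. Array weights gave 22 lower in WT, 17 higher in Lcn2-/- mice, 3 between genotypes under CCl4 and 4 in controls. With slide as a block there were 5 lower and 4 higher in WT, 3 lower and 3 higher in Lcn2-/- mice and 0 between genotypes under CCl4, and 15 of the 45 calls were kept. Slide 1 alone, with 1 WT CCl4 array, gave the same WT values as the slide block. Slide 2 alone gave 0 between genotypes under CCl4. The array column block gave 0 under CCl4 and 1 in controls. The replicate block gave 1 (Cyp2g1) in controls and kept 40 of the 45 calls. Without both controls numbered 3 there were 2 under CCl4 and 1 in controls. Leaving out 1 array gave 9 (without WT control 2) to 20 (without WT control 3) lower and 8 to 11 higher in WT, 6 (without Lcn2-/- control 1 or 2) to 11 lower and 7 to 15 (without Lcn2-/- CCl4 4) higher in Lcn2-/- mice, 0 to 2 between genotypes under CCl4 and 0 to 1 in controls. The causes were not tested.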
